A study of Rattus norvegicus with 16 samples.

Results

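The activity-regulated synaptic effector genes are a group of 10 rat genes that neurons transcribe in response to synaptic activity: Arc, Npas4, Homer1, Nptx2, Vgf, Scg2, Pcsk1, Nrn1, Ptgs2 and Crem. They were chosen by gene symbol, and 7 of the 10 were represented, each by 1 probe set. The annotation of the array names 17245 genes on probe sets with 1 symbol. No such probe set carries the name of Homer1, Pcsk1 or Nrn1, and these 3 were not analysed here. In GRCr8 the RefSeq table places the 7 genes at chr7:108444959-108448413 (Arc), chr1:211710640-211728038 (Npas4), chr12:15151136-15162045 (Nptx2), chr12:25274004-25281803 (Vgf), chr9:88251531-88257208 (Scg2), chr13:64714063-64722320 (Ptgs2) and chr17:58932011-59001160 (Crem). All 7 represented genes had a mean above 4 on the log2 scale over the 16 arrays, the bound below which probe sets were not tested. The prefrontal cortex (PFC) of adult male Sprague–Dawley rats was compared between 8 animals exposed to acute inescapable footshock (FS) and 8 controls. FS rats received 20 min of shock at 0.8 mA, with pauses of random length, within a session of 40 min, and were killed as soon as it ended, whereas controls remained in the home cage. The comparison therefore covers the shocks together with handling and the new surroundings. The whole PFC was dissected in bulk, and each array is 1 labelled replicate.

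Neuronal activity opens calcium channels and NMDA receptors, and the calcium signal reaches the nucleus, where CREB, SRF and MEF2 start a first wave of transcription within minutes. Some genes of that wave, such as Fos and Npas4, encode transcription factors that drive a second wave, while others, such as Arc, encode proteins that act at the synapse itself. The effectors change receptor content, build extracellular scaffolds or release peptides and lipids, and in the PFC they serve as readouts of recent activity of pyramidal neurons. Expression values are RMA signals on the log2 scale, so that a difference of 1 is a doubling.

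Several of these genes are textbook targets of CREB, which binds the palindrome TGACGTCA, the cAMP response element (CRE). RefSeq promoter windows (GRCr8, 250 bases before to 50 after each start) were at hand for 7 of the 10 genes, in 9 windows, and not for Arc, Pcsk1 and Nrn1. The full element stood in 4 windows of 3 genes, Scg2, Vgf and Crem, and in 1.83% of all 33469 windows of the same length. The shorter core TGACG, read on both strands and contained in the full one, occurred in windows of 4 of the genes and in 21.2% of all windows. The stretches around the full element are printed 5′ to 3′, with the element in capitals, to show it in the members that carry it. The Scg2 stretch lies at chr9:88256952-88257019 (minus strand), the Vgf stretch at chr12:25277073-25277140 (minus strand), and both Crem stretches lie on the plus strand, at chr17:58984711-58984778 and chr17:58985425-58985489.
Scg2: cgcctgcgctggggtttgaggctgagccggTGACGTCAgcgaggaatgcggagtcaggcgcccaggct
Vgf: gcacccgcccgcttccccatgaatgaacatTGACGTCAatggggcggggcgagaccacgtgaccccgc
Crem, first internal start: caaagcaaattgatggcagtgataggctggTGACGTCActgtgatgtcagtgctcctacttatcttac
Crem, second internal start: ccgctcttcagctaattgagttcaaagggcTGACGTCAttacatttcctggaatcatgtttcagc
The element began 123 bases before the start of Scg2, 90 before that of Vgf, and 56 and 35 before the internal starts of Crem. The second internal window of Crem held 2 full elements, and the other one, not printed, lies past the start. The most upstream of the 3 Crem windows held no full element. A match of letters is a description and shows no binding in these samples, and the windows of Npas4, Nptx2, Ptgs2 and Homer1 held no full element.

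None of the 7 genes passed the adjusted threshold between FS rats and controls. In limma, 0 of 7 had an adjusted p under 0.05, where 0% of the 11352 tested probe sets did, and the adjusted p-values of the 7 ran between 0.523 and 0.994. At an unadjusted p under 0.05 there was 1 of 7 genes, Crem, against 9.32% of the probe sets tested, made up of 3.65% that lay higher in FS rats and 5.67% that lay lower. The 7 differences were positive for 3 genes and negative for 4, with a median of -0.041, beside a median of -0.018 over all probe sets. In no gene did the groups separate, which happened for 0.0617% of the probe sets tested. With 8 arrays per group the exact two-sided permutation test runs over 12870 assignments, and its smallest possible p is 0.000155.

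**Figure D1:**
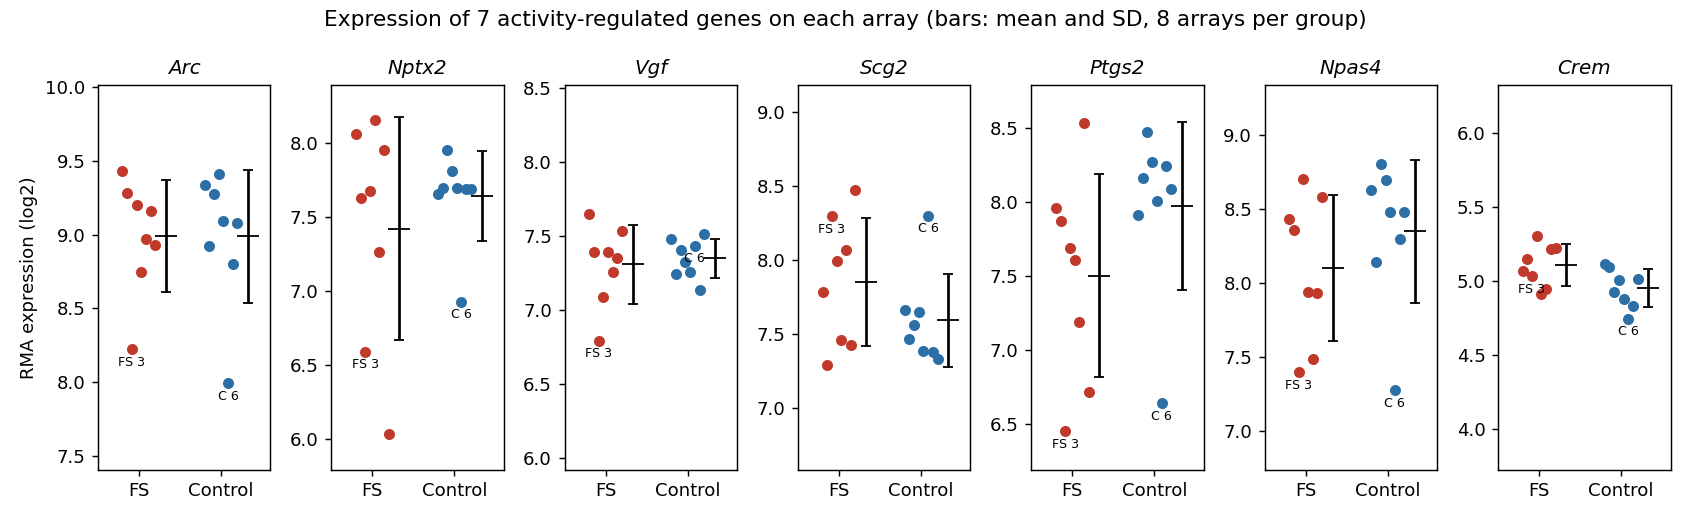
Expression (RMA, log2; every panel spans the same range) of the 7 genes on each of 8 FS and 8 Control arrays, with mean and SD as bars; FS 3 and C 6 mark FS replicate 3 and control replicate 6. Control 6 was the lowest control in 5 of the 7 genes and the highest in Scg2, and in each gene the groups overlapped.

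Arc encodes a capsid-like protein that promotes the removal of AMPA receptors from the synapse, and its RNA is carried into dendrites. In FS rats it lay between 8.22 and 9.43 on the log2 scale with a median of 9.06, and in controls between 7.99 and 9.41 with a median of 9.08. The low values belonged to 1 array of each group, FS replicate 3 and control replicate 6, and the others all lay above 8.7. FS rats averaged 8.99 ± 0.38 and controls 8.99 ± 0.45 (SD, n = 8 each), and the difference was 0.0046 ± 0.188 (SE; 95% interval -0.39 to 0.40; exact permutation p = 0.981, adjusted p = 0.994 in limma). The interval leaves room for a change of about 0.4 in either direction.

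Nptx2 encodes neuronal pentraxin 2, a secreted protein that clusters AMPA receptors on parvalbumin interneurons. FS arrays ran between 6.03 and 8.15, with a median of 7.65, and controls between 6.93 and 7.95, with a median of 7.69. The SD was 0.75 in FS rats and 0.31 in controls, where 7 of 8 arrays fell between 7.66 and 7.95. The 2 lowest FS arrays were replicates 8 and 3, at 6.03 and 6.59. The difference of -0.22 ± 0.26 (SE) was within the spread of the arrays (95% interval -0.76 to 0.32; exact permutation p = 0.464). It was -0.022 ± 0.20 without FS replicate 8, -0.10 ± 0.25 without FS replicate 3 and -0.32 ± 0.26 without control replicate 6.

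Vgf and Scg2 encode granin family precursors, stored in dense core vesicles and cut into peptides such as TLQP-21 (from Vgf) and secretoneurin (from Scg2) by prohormone convertases, of which Pcsk1 is one. Vgf ran between 6.79 and 7.65 in FS rats and between 7.13 and 7.51 in controls, with medians of 7.37 and 7.36. Its lowest FS value was that of replicate 3, and its difference was -0.041 ± 0.099 (SE; exact permutation p = 0.720). Scg2 ran between 7.29 and 8.47 in FS rats, median 7.89, and between 7.33 and 8.30 in controls, median 7.51. The controls except replicate 6 stayed within 7.33 and 7.66, whereas 4 of 8 FS arrays, replicates 3, 4, 6 and 8, lay between 8.00 and 8.47. The Scg2 difference of 0.26 ± 0.17 (SE) had an exact permutation p of 0.1935 and an adjusted p of 0.593 in limma. Without control replicate 6 it was 0.36 ± 0.15 (SE; adjusted p = 0.281 in limma), without FS replicate 8 0.17 ± 0.16 and without FS replicate 3 0.19 ± 0.17.

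Ptgs2 encodes cyclooxygenase 2, which in cortex is made in excitatory neurons and forms prostaglandins from arachidonic acid. It had the lowest difference of the 7, at percentile 0.22 of all tested probe sets. FS arrays lay between 6.45 and 8.53, with a median of 7.65, and controls between 6.64 and 8.47, with a median of 8.12. FS values were below the control mean on 7 of 8 arrays, replicate 7 being the exception, and were lowest on replicates 3 and 8 (6.45 and 6.71). Control replicate 6 was at 6.64, and the other controls were at 7.91 or above. FS rats averaged 7.50 ± 0.69 and controls 7.97 ± 0.57 (SD, n = 8 each), a difference of -0.47 ± 0.28 (SE) or a factor of 1.39, with an exact permutation p of 0.152 and an adjusted p of 0.566 in limma. Without control replicate 6 the difference was -0.66 ± 0.24 (adjusted p = 0.234 in limma), and without FS replicate 7 it was -0.62 ± 0.27 (adjusted p = 0.432). It was smaller without FS replicate 3 (-0.32 ± 0.26) and without FS replicate 8 (-0.36 ± 0.28).

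Npas4 encodes a transcription factor restricted to neurons that regulates inhibitory synapses, and it is transcribed in response to calcium influx with little response to other signals. FS arrays ran between 7.40 and 8.71, with a median of 8.15, and controls between 7.28 and 8.80, with a median of 8.48. FS replicates 3 and 6 and control replicate 6 were between 7.28 and 7.49, and every other array was above 7.9. The difference was -0.25 ± 0.22 (SE; 95% interval -0.71 to 0.22; exact permutation p = 0.325). Without control replicate 6 it was -0.40 ± 0.18 (adjusted p = 0.290 in limma), without FS replicate 3 -0.15 ± 0.21 and without FS replicate 6 -0.16 ± 0.22.

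Crem encodes CREM, a relative of CREB. An internal promoter of the gene, rich in cAMP response elements, yields ICER, a short form that binds the element and represses it. Crem was the 1 gene with an unadjusted p under 0.05, and it was higher in FS rats. FS arrays ran between 4.92 and 5.31 with a median of 5.11, and controls between 4.75 and 5.12 with a median of 4.97. The 4 highest values, of FS replicates 4, 8, 7 and 2, lay above every control, while the other 4 FS arrays lay inside the control range, lowest in replicates 5 and 6 (4.92 and 4.95). FS rats averaged 5.11 ± 0.14 and controls 4.95 ± 0.13 (SD, n = 8 each), with 6 of 8 FS arrays above the control mean. The difference of 0.15 ± 0.07 (SE; 95% interval 0.011 to 0.30), a factor of 1.11, had an exact permutation p of 0.0399 before adjustment and an adjusted p of 0.523 in limma.

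The unadjusted p of Crem was no longer under 0.05 when any 1 of 8 arrays was left out. The differences were 0.15, 0.13, 0.14 and 0.14 without FS replicates 2, 4, 7 and 8, and 0.15, 0.14, 0.12 and 0.14 without control replicates 3, 5, 6 and 7. Crem values lie not far above the bound of 4, and 1 probe set stands for the gene, so that ICER cannot be told apart from the longer CREM transcripts.

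**Figure D2:**
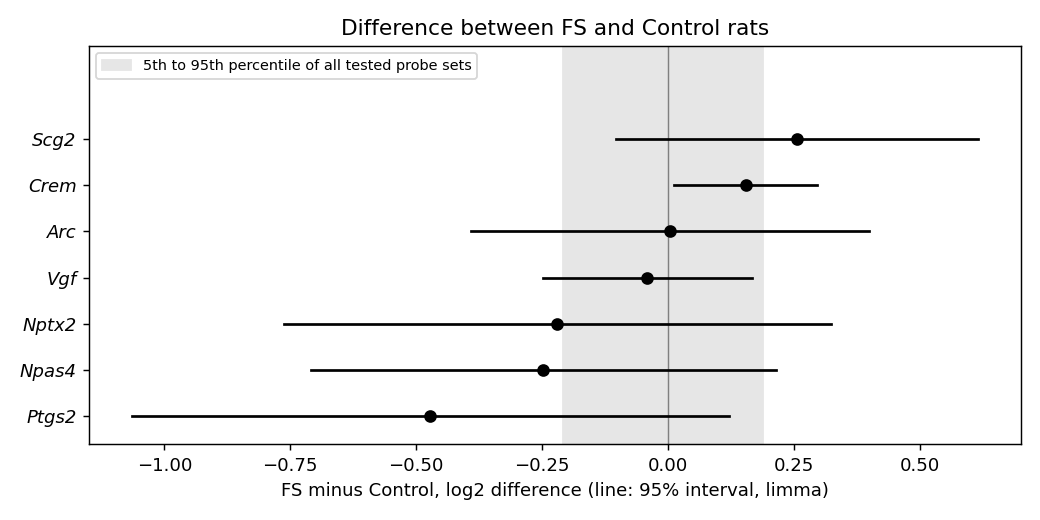
Difference between FS and Control rats in each gene (point, log2) with its 95% interval from limma (line); the grey band holds the 5th to 95th percentile of the differences of all tested probe sets (-0.21 to 0.19). The interval of Crem (0.011 to 0.30) is the 1 interval of the 7 that does not reach 0.

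Arrays of one group differed more from each other in 5 of these genes than in most genes. The residual SD of Arc, Npas4, Nptx2, Scg2 and Ptgs2 lay at percentiles between 95.3 and 99.0 of all tested probe sets, with 0.63 for Ptgs2 and 0.57 for Nptx2 beside a median of 0.15. Vgf (0.21) was at percentile 79.0 and Crem (0.14) at percentile 40.5. Control replicate 6 was the lowest of all 16 arrays in Arc, Npas4 and Crem, and the next to highest in Scg2. FS replicate 3 was the lowest of the 16 in Ptgs2 and Vgf and the next to lowest in Arc, Npas4 and Nptx2. FS replicate 8 did not follow this order: it was the lowest of all in Nptx2 and the highest in Scg2, yet among the higher arrays in Npas4 (8.58) and Crem (5.23).

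Arc and Npas4 varied together, and Ptgs2 and Nptx2 varied together and against Scg2. Over the 16 arrays Pearson's r was 0.803 for Arc and Npas4 (adjusted permutation p = 0.00200 over 21 pairs) and Spearman's rho was 0.676 (adjusted p = 0.0546, permutation). Nptx2 and Ptgs2 had r = 0.840 (adjusted permutation p = 0.00147) and rho = 0.676 (adjusted p = 0.0546). Scg2 and Ptgs2 had r = -0.859 (adjusted permutation p = 0.00147) and rho = -0.626 (adjusted p = 0.0776), and Nptx2 and Scg2 had r = -0.812 (adjusted permutation p = 0.00147) and rho = -0.482 (adjusted p = 0.270). Of the 21 pairs, 6 passed by Pearson's r, 4 of them positive, and 0 passed by Spearman's rho after adjustment.

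Each of these relations had the same sign within FS and within control rats, with r of 0.68 and 0.98 for Arc and Npas4, 0.85 and 0.99 for Nptx2 and Ptgs2, and -0.83 and -0.86 for Scg2 and Ptgs2. Without the 2 arrays farthest from the median of the gene named first, r was 0.53 for Arc and Npas4, 0.74 for Nptx2 and Ptgs2, and -0.76 for Scg2 and Ptgs2. In the controls the negative relations of Scg2 rested on replicate 6: among the other 7, r was 0.097 for Scg2 and Ptgs2 and 0.38 for Nptx2 and Scg2, which had -0.82 with it. Among the same 7 it was 0.86 for Nptx2 and Ptgs2 and 0.88 for Arc and Npas4. The other pairs that passed by r were Arc with Ptgs2 (r = 0.728) and Npas4 with Ptgs2 (r = 0.607), and without 2 arrays, control replicate 6 and FS replicate 3, these were 0.35 and 0.21.

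**Figure D3:**
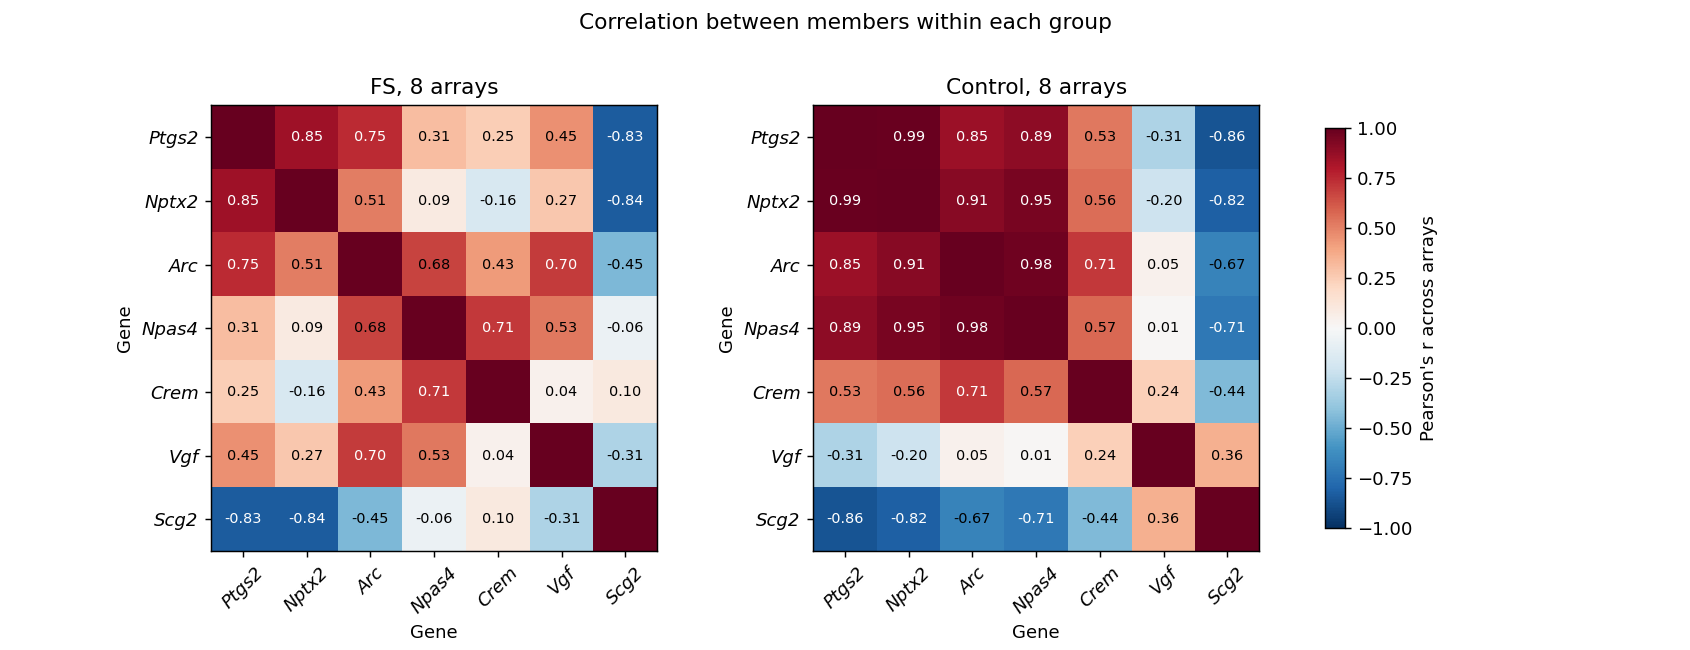
Pearson's r between the 7 genes across the 8 FS arrays (left) and the 8 Control arrays (right), with the value in each field. Ptgs2 and Nptx2 are positively related to each other and negatively to Scg2 in both groups. In controls the negative relations rest on replicate 6: without it r is 0.097 for Ptgs2 and Scg2 and 0.38 for Nptx2 and Scg2. For Vgf and Arc r is 0.70 in FS rats and 0.05 in controls, or 0.64 in controls without replicate 6. The difference between the groups was not tested.

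Ptgs2 and Nptx2 followed markers of striatal and of cortical excitatory neurons, and Scg2 followed those of striatal neurons. No other cell type score was correlated with the members. A list was summarised on each array by centring every tested gene on its 16 values and averaging the centred values, which gives a score on the log2 scale. Markers of striatal medium spiny neurons, of which 18 of 22 listed were tested, had a positive difference in all 18, with a median of 0.72, and 0 passed the adjusted threshold. Their score ran between -0.82 and 1.28 in FS rats and between -0.82 and 1.54 in controls, and was highest on control replicate 6, followed by FS replicates 3 and 8. Markers of cortical excitatory neurons, 11 of 12 listed, were lower in 10 of 11, with scores between -0.81 and 0.27 in FS rats and between -0.68 and 0.40 in controls. In bulk tissue, fewer cells of a type and less RNA per cell cannot be told apart. Myelin markers, 17 of 19 listed, were higher in all 17, with an unadjusted p under 0.05 in limma for 16 and an adjusted one for 0. Over all 11352 tested probe sets, 4830 were higher in FS rats, and 3.65% of the 11352 were higher with an unadjusted p under 0.05. The myelin score ran between -0.020 and 0.35 in FS rats and between -0.60 and 0.21 in controls. Markers of meningeal fibroblasts, 10 of 11 listed, were higher in all 10, with a median of 0.32 and 0 at an unadjusted p under 0.05 in limma. Their score ran between -0.67 and 1.44 in FS rats, highest on replicate 3, and between -0.60 and 0.49 in controls. RMA values have no zero, so no marker can be called absent. The part of these markers in the differences of the members was not tested beyond the covariate fits given next.

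Ptgs2 fell along the striatal score, with r = -0.902 (adjusted permutation p = 0.000105 over 21 relations) and rho = -0.909 (adjusted p = 0.00021). Within FS rats r was -0.84, and within controls -0.96, or -0.67 without replicate 6. Nptx2 ran the same way (r = -0.756, adjusted permutation p = 0.00147; rho = -0.694, adjusted p = 0.0116), and Scg2 the opposite way (r = 0.855, adjusted permutation p = 0.00049; rho = 0.762, adjusted p = 0.00416). Without control replicate 6 and FS replicate 3 these were -0.83 for Ptgs2, -0.66 for Nptx2 and 0.77 for Scg2. Within FS rats Nptx2 and Scg2 had r of -0.80 and 0.79, and within controls -0.92 and 0.93, or -0.38 and 0.54 without replicate 6. With the cortical excitatory score r was 0.947 for Ptgs2 and 0.928 for Nptx2 (adjusted permutation p = 7e-05 for both; rho = 0.794 and 0.894, adjusted p = 0.00205 and 0.000315). Within FS rats these were 0.91 and 0.97, within controls 0.99 and 0.98, and without FS replicates 3 and 8 both were 0.90. Scg2 and the cortical score had r = -0.835 (adjusted permutation p = 0.00081; rho = -0.421, adjusted p = 0.223), with -0.82 within FS rats and -0.81 within controls, where it was 0.40 without replicate 6. Fitted beside the striatal score, the differences of Ptgs2, Nptx2 and Scg2 were 0.019 ± 0.15, 0.16 ± 0.19 and -0.021 ± 0.11 (SE), those of Arc and Npas4 were 0.23 ± 0.17 and -0.054 ± 0.22, and those of Vgf and Crem were -0.0082 ± 0.11 and 0.18 ± 0.07 (adjusted p = 0.997 in limma for Crem). Beside the myelin score, the differences were -0.024 ± 0.33 for Ptgs2, 0.064 ± 0.33 for Nptx2, -0.0087 ± 0.20 for Scg2, 0.11 ± 0.25 for Arc and -0.12 ± 0.29 for Npas4, and those of Vgf and Crem were -0.096 ± 0.13 and 0.16 ± 0.09. Both scores differ in mean between the groups, so that such a fit cannot separate score and group.

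Arc and Npas4 followed the early response transcription factors. They were related to the cortical score by Pearson's r but not by Spearman's rho after adjustment, and in controls largely through replicate 6. Their r with the cortical score was 0.712 and 0.590 (adjusted permutation p = 0.0117 and 0.0301; rho = 0.456 and 0.391, adjusted p = 0.183 and 0.256), or 0.71 and 0.74 without FS replicates 3 and 8. Within FS rats these were 0.67 and 0.29, and within controls 0.88 and 0.90, or 0.24 and 0.33 without replicate 6. For Arc and the striatal score r was -0.541 (adjusted permutation p = 0.0435; rho = -0.253, adjusted p = 0.453), and 0.048 without control replicate 6 and FS replicate 3. The list held 18 genes of the first transcriptional wave, of which 14 were tested, with 7 differences above and 7 below 0. Arc had r = 0.934 with their score (adjusted permutation p = 7e-05 over 21 relations) and rho = 0.847 (adjusted p = 0.00049), and Npas4 had r = 0.803 (adjusted permutation p = 0.000462) and rho = 0.706 (adjusted p = 0.0104). Within FS rats r was 0.92 and 0.83, and within controls 0.95 and 0.89. Without control replicate 6 and FS replicate 3 it was 0.81 for Arc and 0.56 for Npas4. Crem had r = 0.549 (adjusted permutation p = 0.0435) and rho = 0.571 (adjusted p = 0.0586), or r = 0.44 without the same 2 arrays. Ptgs2 had r = 0.596 (adjusted permutation p = 0.0301) and rho = 0.353 (adjusted p = 0.287), and 0.097 without them. The score was lowest on control replicate 6 (-0.59) and FS replicate 3 (-0.46), the arrays with the 2 highest striatal scores.

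**Figure D4:**
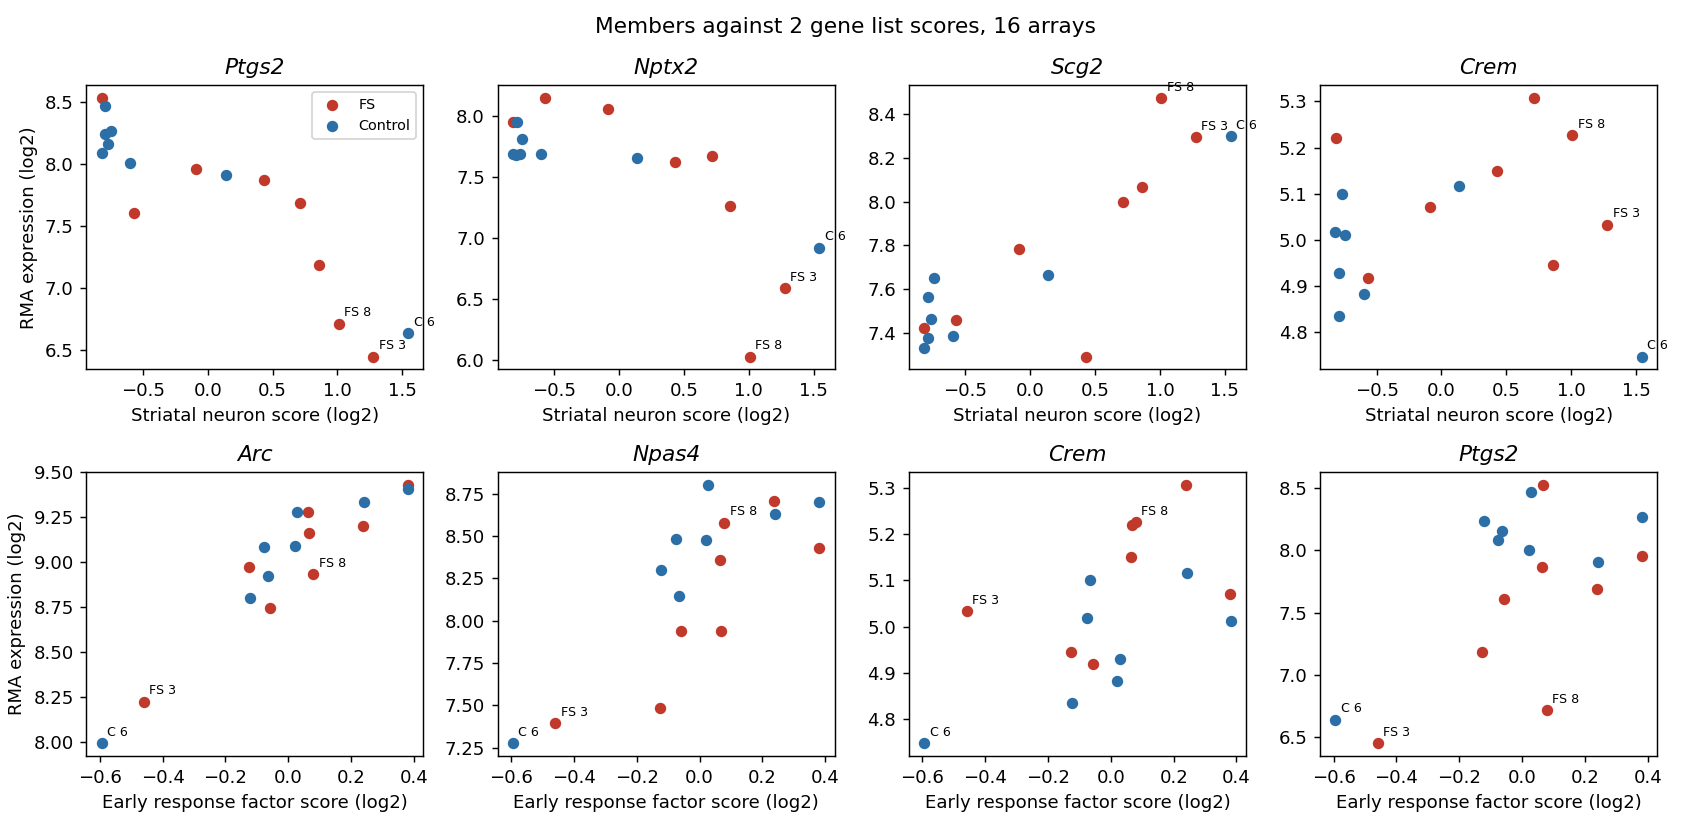
RMA expression (log2) against the striatal neuron score (top) and the early response factor score (bottom) on 8 FS and 8 Control arrays; FS 3, FS 8 and C 6 are FS replicates 3 and 8 and control replicate 6. Ptgs2 and Nptx2 fall and Scg2 climbs along the striatal score, and Arc follows the early response score (r = 0.934). For Crem and the striatal score r is 0.078 over all arrays, and 0.50 without control replicate 6 and FS replicate 3.

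In the lists of genes around the members, 0 passed the adjusted threshold. Of all 11352 tested probe sets, 9.32% had an unadjusted p under 0.05 in limma, 3.65% higher and 5.67% lower in FS rats. Of the 14 early response factors tested, 2 had an unadjusted p under 0.05: Nr4a2 (0.67 ± 0.29 SE, above the control mean on 8 of 8 FS arrays) and Klf4 (0.17 ± 0.08). Fos stood at 0.18 ± 0.18. Of 23 other activity-regulated effectors, 11 were higher and 12 lower with a median of -0.022, and 1 had an unadjusted p under 0.05: Rgs2, a regulator of G protein signalling (0.23 ± 0.10, 7 of 8 FS arrays above the control mean). The largest differences in that list were those of Tac1 (0.92 ± 0.48), which is a striatal marker as well, and of the neuropeptide gene Adcyap1 (-0.56 ± 0.40).

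Over all 11352 tested probe sets, 6522 were lower in FS rats, the share to set beside the counts that follow. Scaffold and receptor partners of Arc and Homer proteins were higher in 4 and lower in 8 of 12 tested genes. The largest differences belonged to the postsynaptic scaffold gene Dlgap1 (-0.29 ± 0.14 SE) and the AMPA receptor auxiliary subunit gene Cacng2 (-0.18 ± 0.15). Other pentraxins and AMPA receptor subunits were lower in 5 of 6, with the pentraxin receptor gene Nptxr at -0.26 ± 0.24 and Nptx1 at -0.19 ± 0.20. Genes of granins and peptide processing were lower in 9 of 12. Of these 12, 1 had an unadjusted p under 0.05 in limma, beside 5.67% of all tested probe sets that were lower at that level. It was the convertase gene Pcsk5 (-0.23 ± 0.09), below the control mean on all 8 FS arrays, with an unadjusted p of 0.019 in limma (adjusted p = 0.514). Pcsk2 stood at -0.22 ± 0.12.

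Prostaglandin genes other than Ptgs2 were higher in 4 and lower in 2 of 6 tested, with the prostaglandin D synthase gene Ptgds at 0.21 ± 0.30 (SE) and the constitutive cyclooxygenase gene Ptgs1 at -0.09 ± 0.07. Factors and coactivators around the response element were higher in 6 and lower in 7 of 13, with a median of -0.0041. Camk4, a kinase that activates CREB, stood at -0.20 ± 0.16, and Arnt2, a partner of Npas4, at -0.15 ± 0.08.

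By deviations from group means over the 16 arrays, the gene most like each member among 10416 other tested genes was Bhlhe40 for Ptgs2 (r = 0.985), Tmem47 for Scg2 (0.977), Kcnh3 for Nptx2 (0.963), Trib1 for Arc (0.938), Sf3a2 for Vgf (0.917), Nphp4 for Npas4 (0.864) and Pxk for Crem (0.843). These are the highest of 10416 values each, and the points share the 16 arrays.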

How the data were processed

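Gene expression was measured in PFC RNA of 8 FS and 8 control rats on Affymetrix Rat Gene 1.0 ST arrays. Per the study's methods and the submitters' processing notes, the authors read the scanner files with oligo (version 1.58.0) and applied RMA, and the deposited values are log2 signals of 29214 probe sets. Arrays were normalised together, so a shift shared by most genes cannot be seen, and RMA compresses differences of dim probe sets. Symbols came from the platform annotation: 18644 probe sets had 1 symbol, 962 several and 9608 none here. Probe sets with 1 symbol and a mean above 4 were tested (11352, of 10423 genes), with limma (version 3.58.1, R 4.3.3; lmFit, eBayes) and group as the 1 term, adjusting p-values over all of them by Benjamini-Hochberg. Single genes were also tested by exact permutation of the arrays, and correlations with 100000 permutations. The number of arrays limits the precision, with a median SE of 0.073 over all tested probe sets. Among the members the SE ran from 0.068 (Crem) to 0.28 (Ptgs2). Per the study's methods the rats shared cages, and the labels do not say which replicates came from the same cage. The p-values treat the arrays as independent and rest on the spread between them. The fit was tested on simulated data of independent genes, with no shift or a shift larger than the difference of any member. That test does not cover genes that vary together or smaller shifts. Alternatives were other filters, centring, variance models, the replicate number as a block, covariates, and arrays left out. Every member had 1 probe set, so averaging probe sets gave no further value. Named genes were all members, the 2 largest differences of each related list and its genes with an unadjusted p under 0.05, and the gene most like each member. Members and lists were chosen with earlier results of these data known.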

Additional observations from a re-analysis of the deposited data

Results flagged for a closer look

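Single arrays stood far from the other 7 of their group in 5 of 14 gene and group combinations looked at, and all 5 were control replicate 6. It was at 7.99 in Arc, 7.28 in Npas4, 6.93 in Nptx2 and 6.64 in Ptgs2, below every other control, and at 8.30 in Scg2, above every other control. Chance flags about 1 in 20 groups, and 5 values of 1 array are not independent. The same array had the highest striatal score, 1.54, and the lowest early response score, -0.59. Without it the control means were 9.13 for Arc, 8.51 for Npas4, 7.74 for Nptx2, 8.16 for Ptgs2 and 7.49 for Scg2.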

How the results depend on the processing

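No gene of the group passed the adjusted threshold in limma under any alternative tried. The count of probe sets past it, 0, was 0 to 1 with each array left out (1 without FS replicate 2) and 1 without control replicate 6 and FS replicate 3 together, a choice made after seeing the data. The count of members with an unadjusted p under 0.05, 1, was 0 to 3 with each array left out (3 without control replicate 6: Npas4, Scg2 and Ptgs2), 0 with the myelin score as a covariate (Crem 0.16 ± 0.09, against 0.15 ± 0.07 without it), and 2 without control replicate 6 and FS replicates 3 and 8, also chosen after seeing the data. Without FS replicate 7, and without control replicate 6 and FS replicate 3 together, the count was again 1, but the gene was Ptgs2 and not Crem. Each difference that changed sign was smaller than its standard error in the fit where it did. Arc ran from -0.14 to 0.11 and Vgf from -0.090 to 0.033 with each array left out. Vgf was 0.028 with array weights, Nptx2 0.16, Scg2 -0.021 and Ptgs2 0.019 with the striatal score, and Nptx2 0.064 and Scg2 -0.0087 with the myelin score as a covariate. Arc was -0.028 and Vgf 0.045 without control replicate 6 and FS replicate 3, and Nptx2 0.048 and Vgf 0.019 without FS replicate 8 as well. Beyond the construction of the alternatives, the cause was not tested. Crem (0.12 to 0.18) and Npas4 (-0.40 to -0.054) kept their sign in 28 alternatives. The Npas4 difference was smaller than its standard error with either score as a covariate. The same held without some single arrays, such as FS replicate 3 (-0.15 ± 0.21). The replicate numbers are not shown to pair the arrays: same-numbered arrays correlated between -0.31 and 0.49 in their deviations from group means, and 2 of 8 numbers matched their own best. With the replicate number as a block, 1 member, Crem (0.15 ± 0.06 SE), stayed under the unadjusted threshold and 0 passed after adjustment, so the block changed no call.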

Other observations

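The sign of the relation between Arc and Scg2 differed with 1 array. Over the 16 arrays r was -0.50 (permutation p = 0.0452, adjusted p = 0.119 over 21 pairs) and rho -0.20 (permutation p = 0.468, adjusted p = 0.707). In controls r was -0.67 with replicate 6 and 0.80 among the other 7, and in FS rats it was -0.45. Scg2 and the early response score had r = -0.53 in controls and 0.86 among the 7 without replicate 6, and -0.28 in FS rats. Scg2 and Npas4 had r = -0.71 in controls and 0.61 among the same 7, and -0.062 in FS rats.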
